A study of Mus musculus with 16 samples.

Results

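The genes described here are 10 members of the Notch pathway in mouse celiac ganglia and neuroblastoma: the receptors Notch1, Notch2 and Notch3, the ligands Dll1, Dll3, Jag1 and Jag2, and the target genes Hes1, Hes5 and Hey1. They were chosen by name and by their place in the pathway, with earlier results of these data known. All 10 were among the 24411 genes of the deposited tables and among the 16665 genes that had enough counts to be tested.

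RNA-Seq was available for 16 libraries in 5 groups, 12 from celiac ganglia of 2-week-old mice and 4 from tumors. Transgene-free ganglia lacked the human MYCN transgene and came from mice with wild-type Runx1t1 (n = 4, replicates 1 to 4) or from mice labelled Runx1t1 het (n = 3, replicates 1, 3 and 4), which carry 1 functional allele beside an insertional knockout allele. MYCN ganglia came from mice homozygous for Th-MYCN, again with wild-type Runx1t1 (n = 3, replicates 1, 3 and 4) or labelled Runx1t1 het (n = 2, replicates 1 and 2). The tumors (n = 4, replicates 1 to 4) were from Th-MYCN homozygotes with wild-type Runx1t1, and their age was not given in the sources used here. The Runx1t1 knockout allele came from a separate line, of another background, that was crossed with Th-MYCN mice. In the Th-MYCN model, kept on a 129/SvJ background, the tyrosine hydroxylase promoter drives human MYCN in sympathetic cells. That promoter limits the model to cells that switch Th on, and since the tables list mouse genes, the human transgene was not measured. The ganglion and tumor libraries therefore differ in tissue and possibly in age as well as in disease state, which cannot be told apart here. Sex was uneven too, since the Y-linked gene Ddx3y was over 1 CPM in 3 of the 4 tumors. Among ganglia it was over 1 CPM in 1 library of each group, except that het-labelled MYCN ganglia had 0. The labels do not say that each library came from a separate animal, so the p-values measure the spread between these samples.

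Notch receptors are single-pass membrane proteins that are activated by Delta-like or Jagged ligands on a neighboring cell. Ligand pulling exposes the receptor to ADAM proteases and then to gamma-secretase, which releases the intracellular domain. That domain binds the DNA-binding protein Rbpj in the nucleus and switches on Hes and Hey genes, whose products repress proneural genes. In the developing sympathetic nervous system, Notch signaling is known for holding back neuronal differentiation and for its part in the formation of glia, and Notch receptors are also used by blood vessels and pericytes.

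The depth ran from 10692299 to 38618757 expected counts per library. The libraries over 20000000 counts were 4 of the 7 from transgene-free ganglia, 2 of the 5 from MYCN ganglia and all 4 from tumors. Markers of sympathetic neurons were present in every library, with no gene of the list of 14 at 0 in all libraries of a group and summed TPM (transcript level scaled to a fixed total in each library and corrected for gene length) of 7378 to 21954 in transgene-free ganglia and 2736 to 4090 in tumors. Of those 14 neuron markers, 11 were lower and 2 higher in tumors than in transgene-free ganglia by edgeR's quasi-likelihood test. Replicate 2 of the wild-type transgene-free ganglia stood apart from its group, with a summed TPM of 1065 for lymphocyte markers and 2157 for macrophage markers. Replicate 1 of the wild-type MYCN ganglia stood apart with a summed TPM of cycling-cell markers of 1184, against 93.3 to 634 in the other MYCN ganglia. Tumor replicate 3 stood apart with a summed TPM of 4 hepatocyte markers of 5835, against 1.41 to 65.1 in the other tumors. Values without these libraries are given below for the members called and for named genes whose call changed. The 5 members called between tumors and transgene-free ganglia were called without the first 2 of these libraries and without tumor replicate 3. Runx1t1 itself ranged from 8.47 to 13.1 CPM (counts scaled to library size) in wild-type and from 13.1 to 18.2 CPM in het-labelled transgene-free ganglia. The het label was thus not seen as a lower Runx1t1 level, and a count over the whole gene does not tell a disrupted transcript from an intact one, so the word labelled is kept. Runx1t1 ranged from 23.4 to 243 CPM in wild-type MYCN ganglia, was 25.3 and 49.9 CPM in those labelled het, and lay between 123 and 227 CPM in tumors.

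Notch1 lies on the minus strand at chr2:26457903-26516663 and Notch2 on the plus strand at chr3:98013527-98150361 (GRCm38, GENCODE vM21, as for all positions here). Notch3 (chr17:32120820-32166852), Dll1 (chr17:15367354-15376872), Dll3 (chr7:28293553-28302238), Jag1 (chr2:137081456-137116644), Jag2 (chr12:112907819-112929776) and Hey1 (chr3:8663359-8667256) are on the minus strand. Hes1 (chr16:30064384-30067796) and Hes5 (chr4:154960923-154962371) are on the plus strand. Notch1 overlaps Mir6996, Jag2 overlaps Mir6941 and Notch2 overlaps Gm42819 and Gm42820 on the same strand. Hes5, Notch1, Notch3 and Dll1 each overlap a gene of the other strand in this annotation (for Hes5, Gm20421), and since the strand setting of the counting is not given in the sources used here, reads from such pairs cannot be told apart.

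Because Rbpj carries the Notch signal to DNA, the promoters were searched on both strands for its core motif TGGGAA in the 250 bases before the transcription start (RefSeq, GRCm38.p6). Windows were available for 8 of the 10 members, all except Hes1 and Hey1. They follow the RefSeq starts, which differ from the GENCODE starts for several members, so that not every window is sequence before the GENCODE gene. For Dll3, Jag2, Notch1 and 1 of the 2 starts of Dll1 all 250 bases lie inside the gene, and for Jag1 124 do. The windows of Dll3 and Jag2 are exonic throughout, and those of Dll1 are covered by exons of Dll1 or of the overlapping A930024N18Rik. Hes5 was the only member whose window held the core motif, and it held it on each strand. The 190 bases that span both matches are shown because they hold every core match found in a member's window. They lie at chr4:154960677-154960866 on the plus strand, from 246 to 57 bases before the start. They overlap 1 exon, that of Gm20421 on the other strand, and are shown with the core or its reverse complement TTCCCA in capitals. The same motif was found once in Hey2, the target gene outside the 10 members that differed most in tumors, at chr10:30842965-30843010 on the minus strand, 227 to 182 bases before the start. The windows of Hes6 and Nrarp, which are also outside the members, were searched too and did not hold it.
Hes5: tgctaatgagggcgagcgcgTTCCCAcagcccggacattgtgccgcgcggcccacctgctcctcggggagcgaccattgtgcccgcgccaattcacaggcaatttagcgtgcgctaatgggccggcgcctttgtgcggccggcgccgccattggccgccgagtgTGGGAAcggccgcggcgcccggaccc
Hey2: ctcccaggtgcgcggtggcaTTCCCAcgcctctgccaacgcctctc

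The core motif was present in 21.6% of all 32851 windows of this length, and at least 2 matches were present in 2.77%. The longer motif GTGGGAA, which contains the core, was present in 5.42% of windows and was found on each strand in Hes5 and once in Hey2. The N box CACNAG, a site for Hes proteins, was in the windows of Notch1, Notch2 and Notch3 and in 36.7% of all windows. Outside the members, Hes6 and Nrarp held it. The E box CACGTG, a site for Myc proteins, was in no member's window, in that of Nrarp and in 6.02% of all windows. A match is a run of letters and not evidence of binding, the lack of one says only that these letters are not in this window, and these data hold no measurement of binding.

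The first comparison asked how the pathway differs between fully formed tumors and ganglia that never carried the transgene. Tumors had less Notch1 RNA than transgene-free ganglia (8.54-fold lower), less Notch2 (2.75-fold lower), and less of the targets Hes1 (7.99-fold lower) and Hey1 (3.34-fold lower). The ligand Jag2 was 2.04-fold higher. Notch3, Dll1, Dll3, Jag1 and Hes5 did not pass the test. Thus 1 member was higher and 4 were lower of 10 at an adjusted p below 0.05, in a comparison that called 30.6% of all tested genes higher and 30.9% lower. A count of 1 higher is below that background and a count of 4 lower is slightly above it, so the counts do not set the members apart from other genes. The median log2 fold change was -0.68 over the members and -0.06 over all tested genes, and the median absolute log2 fold change was 0.95 over the members and 1.01 over all genes. When TPM values were tested with limma, the share of called genes that were higher in tumors was 31.6%, against 49.8% in the edgeR fit of counts.

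**Figure D1:**
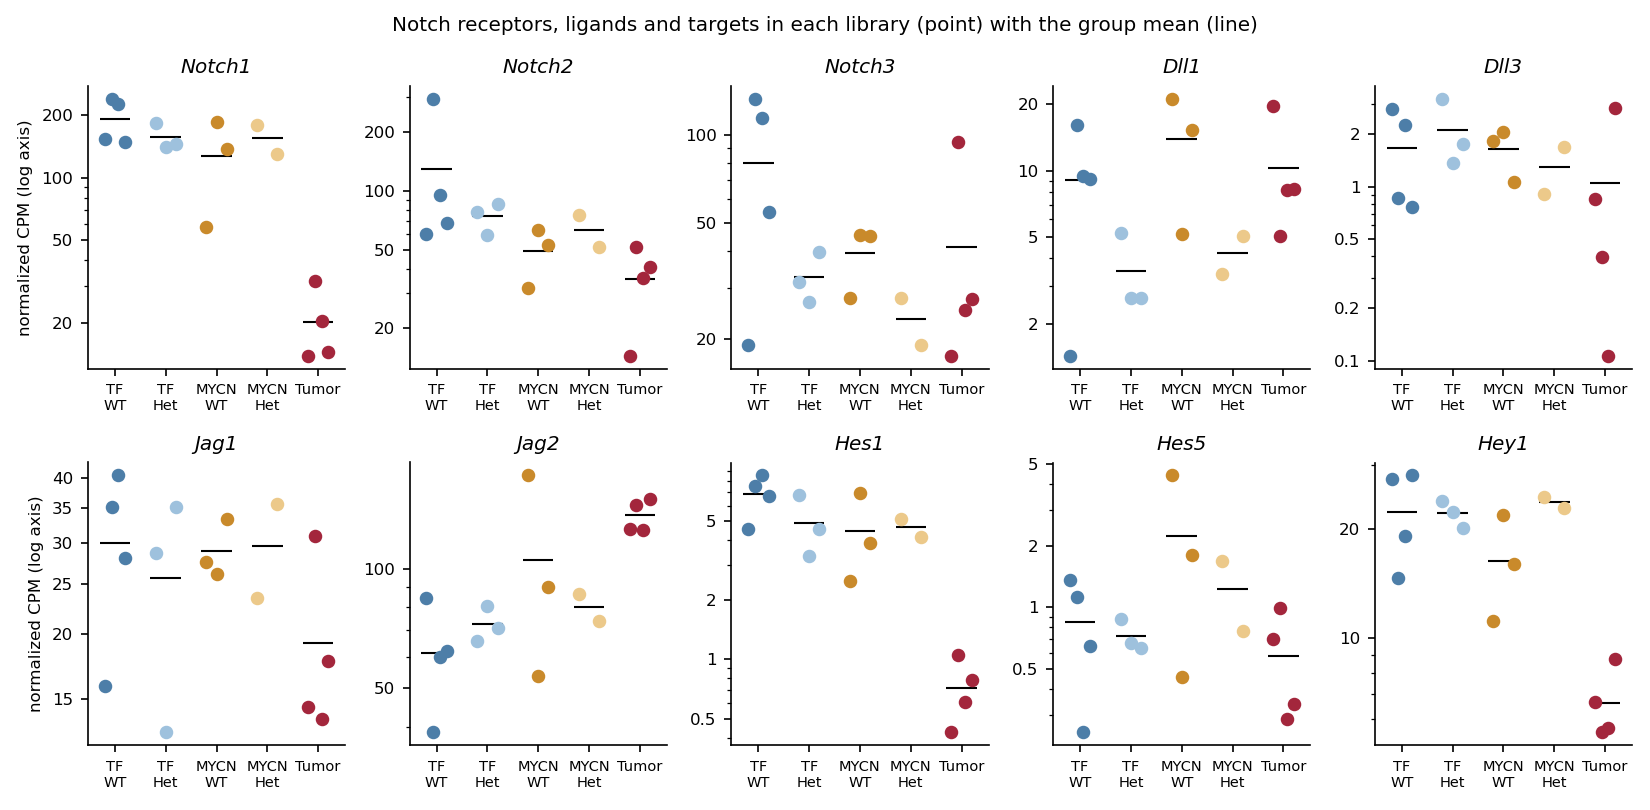
Level of each member in every library, in CPM on a log axis, with 1 panel per gene, 1 column of points per group and a line at the group mean (TF, transgene-free; WT and Het, the Runx1t1 label). The tumor points of Notch1, Hes1 and Hey1 lie below every ganglion point, and those of Jag2 lie above every point of the transgene-free ganglia.

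Notch1, a receptor of neural progenitors, glia and endothelium, was at 153, 239, 226 and 148 CPM in the wild-type transgene-free ganglia. It was at 183, 141 and 145 CPM in the transgene-free ganglia labelled Runx1t1 het. The tumors had 13.9, 32.0, 20.5 and 14.5 CPM. Every tumor was below every ganglion of either transgene-free group, and the highest tumor was well under the lowest ganglion. Of all tested genes, 21.5% were lower in this way, without overlap, and 22.7% higher. The log2 fold change was -3.09 (SE 0.344, 95% interval -3.83 to -2.36, edgeR adjusted p = 5.64e-06). Notch1 had between 359 and 6407 counts in each library, so counting error was small beside the spread between libraries. The same difference was -3.02 without the 2 libraries that stood apart and -3.01 among libraries over 20000000 counts.

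Notch2, a broadly used receptor, was at 59.7, 293, 94.6 and 68.7 CPM in wild-type and at 78.1, 59.1 and 85.6 CPM in het-labelled transgene-free ganglia. It was at 14.4, 51.6, 35.8 and 40.6 CPM in tumors. The groups did not overlap, although the gap between the highest tumor and the lowest ganglion was narrow, and the high value of 293 CPM came from replicate 2, the library rich in lymphocyte markers. Its log2 fold change was -1.46 (SE 0.451, 95% interval -2.43 to -0.49, edgeR adjusted p = 0.0121). It was -1.05 without the 2 libraries that stood apart (adjusted p = 0.00779, edgeR). Within libraries split by Ddx3y, a Y-linked gene that tells the sex of the mouse, the difference kept its sign but missed the threshold, at -2.21 with Ddx3y over 1 CPM (adjusted p = 0.0595, edgeR) and at -0.81 at or under it (adjusted p = 0.162, edgeR). The first subset holds 2 ganglia and 3 tumors and the second 5 ganglia and 1 tumor, which is assumed to vary like the other groups, so a missed threshold there says little.

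Notch3, the receptor best known from pericytes and vascular smooth muscle, ranged from 19.1 to 132 CPM in transgene-free ganglia and from 17.5 to 94.4 CPM in tumors. The ranges overlapped, and 3 of the 4 tumors lay at 17.5 to 27.5 CPM while replicate 2 alone reached 94.4 CPM. The log2 fold change was -0.31 (SE 0.501, 95% interval -1.39 to 0.76, edgeR adjusted p = 0.610). Without tumor replicate 2 it was -1.12, just at the threshold of an adjusted p of 0.05 by edgeR. The summed TPM of 10 pericyte and smooth muscle markers was 175 in that tumor and 276 in tumor replicate 4, whose Notch3 was 27.5 CPM. The part of these cells in the Notch3 level was not tested.

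Among the ligands, Jag2, a Jagged-family ligand, was at 84.4, 38.8, 60.1 and 62.0 CPM in wild-type and at 65.8, 80.5 and 71.0 CPM in het-labelled transgene-free ganglia. The tumors had 126, 145, 125 and 150 CPM. All 4 tumors were above all 7 ganglia, and the tumors varied little among themselves. On the log2 scale the difference was 1.03 (SE 0.250, 95% interval 0.49 to 1.57, edgeR adjusted p = 0.00268). It was 0.96 without the 2 libraries that stood apart and 1.00 among the deeper libraries. Among libraries with Ddx3y at or under 1 CPM, which include 1 tumor, it was 1.08 and missed the threshold (adjusted p = 0.0931, edgeR).

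The other ligands overlapped between tumors and transgene-free ganglia. Jag1, a ligand of blood vessels and many epithelia, ranged from 12.9 to 40.5 CPM in ganglia and from 13.7 to 30.8 CPM in tumors (log2 fold change -0.53, 95% interval -1.21 to 0.16, edgeR adjusted p = 0.166). Leaving out tumor replicate 2 brought Jag1 past the threshold at -0.85 (adjusted p = 0.0374, edgeR), and limma on TPM called it at -0.84 (adjusted p = 0.0235). Dll1, a Delta-like ligand of neural progenitors, ranged from 1.44 to 16.1 CPM in ganglia and from 5.06 to 19.6 CPM in tumors (0.87, 95% interval -0.27 to 2.02, adjusted p = 0.170, edgeR). Dll3, an atypical ligand that acts inside the cell against Notch, was near the limit of counting, with 3 to 101 counts per library. It ranged from 0.77 to 3.20 CPM in ganglia and from 0.11 to 2.84 CPM in tumors (-0.83, 95% interval -2.33 to 0.67, adjusted p = 0.321, edgeR). Without tumor replicate 4, its highest tumor, Dll3 was at -2.04 with an adjusted p of 0.0217 by edgeR, and limma on TPM called Dll3 at -0.85 (adjusted p = 0.0408). Small differences of Dll3 and Hes5 were not detectable at this depth.

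Of the targets, Hes1, a bHLH repressor that is the classical readout of Notch activity, was at 4.56, 7.54, 8.53 and 6.71 CPM in wild-type and at 6.81, 3.34 and 4.54 CPM in het-labelled transgene-free ganglia. In tumors it was at 0.43, 1.05, 0.61 and 0.79 CPM. Every tumor was below every ganglion, and the tumor values rested on 11 to 37 counts. Relative to these ganglia the log2 fold change was -3.00 (SE 0.393, 95% interval -3.84 to -2.15, edgeR adjusted p = 1.98e-05). It was -2.96 without the 2 libraries that stood apart and -2.92 among the deeper libraries.

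Hey1, a related repressor that is a Notch target in vessels and in neural cells, was at 27.4, 14.7, 19.2 and 28.2 CPM in wild-type and at 23.9, 22.2 and 20.2 CPM in het-labelled transgene-free ganglia. It was at 6.68, 5.51, 5.64 and 8.76 CPM in tumors. The groups did not overlap. The log2 fold change was -1.74 (SE 0.237, 95% interval -2.25 to -1.23, edgeR adjusted p = 2.62e-05), and -1.81 without the 2 libraries that stood apart. Hes5, a target of neural progenitors and glia, was low everywhere, with 7 to 70 counts per library. Its levels overlapped at 0.25 to 1.36 CPM in ganglia and 0.29 to 0.99 CPM in tumors (-0.42, 95% interval -1.77 to 0.93, adjusted p = 0.580, edgeR).

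The libraries also differed in their cell markers along with these members. Of 12 markers of satellite glia and Schwann cells, 11 were lower in tumors than in transgene-free ganglia and Gfap was at -2.08 (adjusted p = 0.0688, edgeR). The summed TPM of these 12 glial markers was 680 to 2445 in transgene-free ganglia, 565 to 2328 in MYCN ganglia and 47.3 to 55.5 in tumors, and none was at 0 in all libraries of a group. Of 10 endothelial markers, 8 were lower in tumors, with sums of 97.9 to 760 TPM in transgene-free ganglia and 52.0 to 107 TPM in tumors. The 760 TPM was in wild-type transgene-free replicate 2, and the next highest sum was 462 TPM. Of 10 pericyte and smooth muscle markers 3 were lower and 0 higher, with sums of 99.8 to 502 TPM in transgene-free ganglia and 41.1 to 276 TPM in tumors. All 8 fibroblast markers were lower and all 8 markers of cycling cells were higher in tumors. Of 8 macrophage markers 3 were higher, with sums of 325 to 1018 TPM in tumors. The sum was 2157 TPM in wild-type transgene-free replicate 2 and 52.2 to 200 TPM in the other transgene-free ganglia. Of 6 adrenal cortex markers 5 were lower, with sums of 6.48 to 100.1 TPM in transgene-free ganglia and 3.05 to 5.61 TPM in tumors. All 4 hepatocyte markers were higher in tumors, where replicate 3 holds nearly all of their TPM. Without that tumor the log2 fold changes were -3.10 for Notch1, -1.46 for Notch2 (adjusted p = 0.0282, edgeR), 1.07 for Jag2, -2.92 for Hes1 and -1.67 for Hey1. In bulk RNA, fewer cells of a type and less RNA per cell cannot be told apart. The part of these cells in the lower Notch1, Notch2, Hes1 and Hey1 was not tested.

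**Figure D2:**
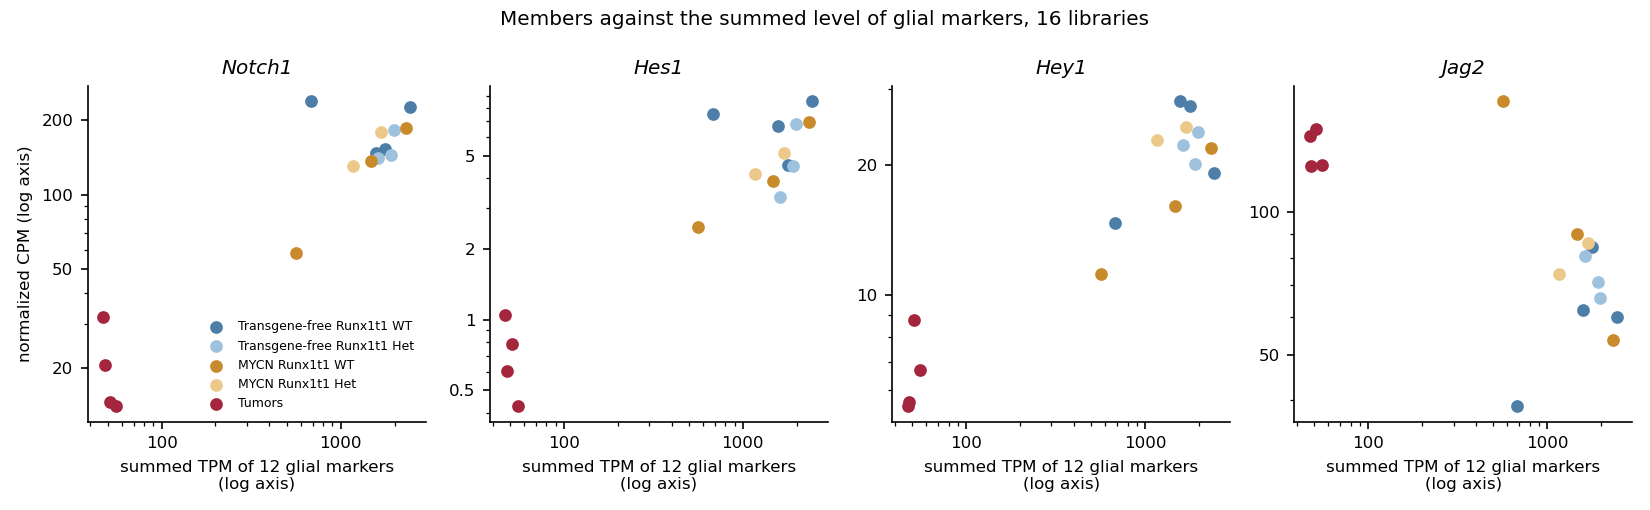
Levels of Notch1, Hes1, Hey1 and Jag2 (CPM, log axis) against the summed TPM of 12 glial markers (log axis), with 1 point per library colored by group. The 4 tumors sit together at 47.3 to 55.5 TPM of glial markers, apart from all 12 ganglia, which begin at 565 TPM.

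Tumors were next set against ganglia of mice that also carried the transgene. Notch1, Hes1 and Hey1 were lower in tumors in both, Notch2 and Jag2 passed the test in neither, and no member was higher. Both use the same 4 tumors as the comparison above, so the 3 results are not independent. Against MYCN ganglia with wild-type Runx1t1, 3 of the 10 members were lower and 0 were higher, beside 20.5% of all tested genes lower and 14.0% higher. Against MYCN ganglia labelled Runx1t1 het, 3 were lower and 0 higher, beside 23.5% and 22.0% of all genes. In each case the 3 lower members were Notch1, Hes1 and Hey1, a count slightly above that background.

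Notch1 was at 58.1, 186 and 137 CPM in wild-type MYCN ganglia and at 180 and 130 CPM in those labelled het. The tumors, at 13.9 to 32.0 CPM, were below all 5. Of all tested genes, 21.0% were lower without overlap and 18.7% higher against the wild-type MYCN group, and 63.0% did not overlap with the het-labelled group, 32.1% being higher. Its log2 fold change was -2.65 against the wild-type group (SE 0.369, edgeR adjusted p = 0.000164) and -2.94 against the het-labelled group (SE 0.396, edgeR adjusted p = 7.27e-05).

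Hes1 was at 2.48, 6.95 and 3.90 CPM in wild-type MYCN ganglia and at 5.14 and 4.17 CPM in those labelled het. No tumor exceeded 1.05 CPM, so the groups did not overlap. The log2 fold change was -2.62 against wild-type (SE 0.424, edgeR adjusted p = 0.000469) and -2.69 against het-labelled MYCN ganglia (SE 0.457, edgeR adjusted p = 0.000397).

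Hey1 was at 11.2, 21.9 and 16.1 CPM in wild-type MYCN ganglia and at 24.5 and 22.9 CPM in those labelled het, all above the tumor maximum of 8.76 CPM. Its log2 fold change was -1.30 (SE 0.266, edgeR adjusted p = 0.00220) and -1.83 (SE 0.292, edgeR adjusted p = 0.000251) against the wild-type and het-labelled groups.

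Jag2 was at 171, 53.8 and 89.8 CPM in wild-type MYCN ganglia. Replicate 1 exceeded every tumor while the other 2 lay below all of them. Over the group the log2 fold change was 0.38 (SE 0.313, 95% interval -0.29 to 1.05, edgeR adjusted p = 0.371), 0.92 without MYCN replicate 1 (adjusted p = 0.0155, edgeR), 0.93 without both libraries that stood apart (adjusted p = 0.00392, edgeR) and 0.06 without MYCN replicate 3 (adjusted p = 0.898, edgeR). In MYCN ganglia labelled het, Jag2 was at 86.2 and 74.0 CPM, below every tumor, and the log2 fold change of 0.77 missed the threshold (SE 0.364, 95% interval -0.02 to 1.55, edgeR adjusted p = 0.101). It passed without both libraries that stood apart, at 0.78 (adjusted p = 0.00918, edgeR), without wild-type MYCN replicate 1 (0.77, adjusted p = 0.0316, edgeR) or replicate 3 (0.77, adjusted p = 0.0419, edgeR), neither of which is in the groups compared, and in a fit of only the groups compared, at 0.76 (adjusted p = 0.00443, edgeR).

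Notch2 was at 31.7, 63.2 and 53.1 CPM in wild-type and at 74.8 and 51.5 CPM in het-labelled MYCN ganglia, and both groups overlapped with the tumors. Its log2 fold change was -0.47 (adjusted p = 0.502, edgeR) and -0.83 (adjusted p = 0.256, edgeR) against these groups. Hes5 was at 4.40, 0.46 and 1.81 CPM in wild-type MYCN ganglia, and the log2 fold change in tumors was -1.92 with an adjusted p of 0.0611 by edgeR. That value passed the threshold with DESeq2 (adjusted p = 0.0324), with limma on TPM (adjusted p = 0.0405) and without MYCN replicate 3 (-2.41, adjusted p = 0.0288, edgeR). Without MYCN replicate 1, which holds the value of 4.40 CPM, or without both libraries that stood apart it was -0.97 (adjusted p = 0.326 for the latter, edgeR). Dll1 was at 3.38 and 5.02 CPM in het-labelled MYCN ganglia, below every tumor, but with a log2 fold change of 1.29 it did not pass (adjusted p = 0.204, edgeR). All tumor libraries were over 20000000 counts and neither het-labelled MYCN library was, so depth and group cannot be told apart by a split there. A term for depth in the fit left 3 members called in each of these comparisons. Without both libraries that stood apart, Notch1 was at -2.98, Hes1 at -2.89 and Hey1 at -1.50 against wild-type MYCN ganglia, and without tumor replicate 3 these 3 members were called in both comparisons.

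**Figure D3:**
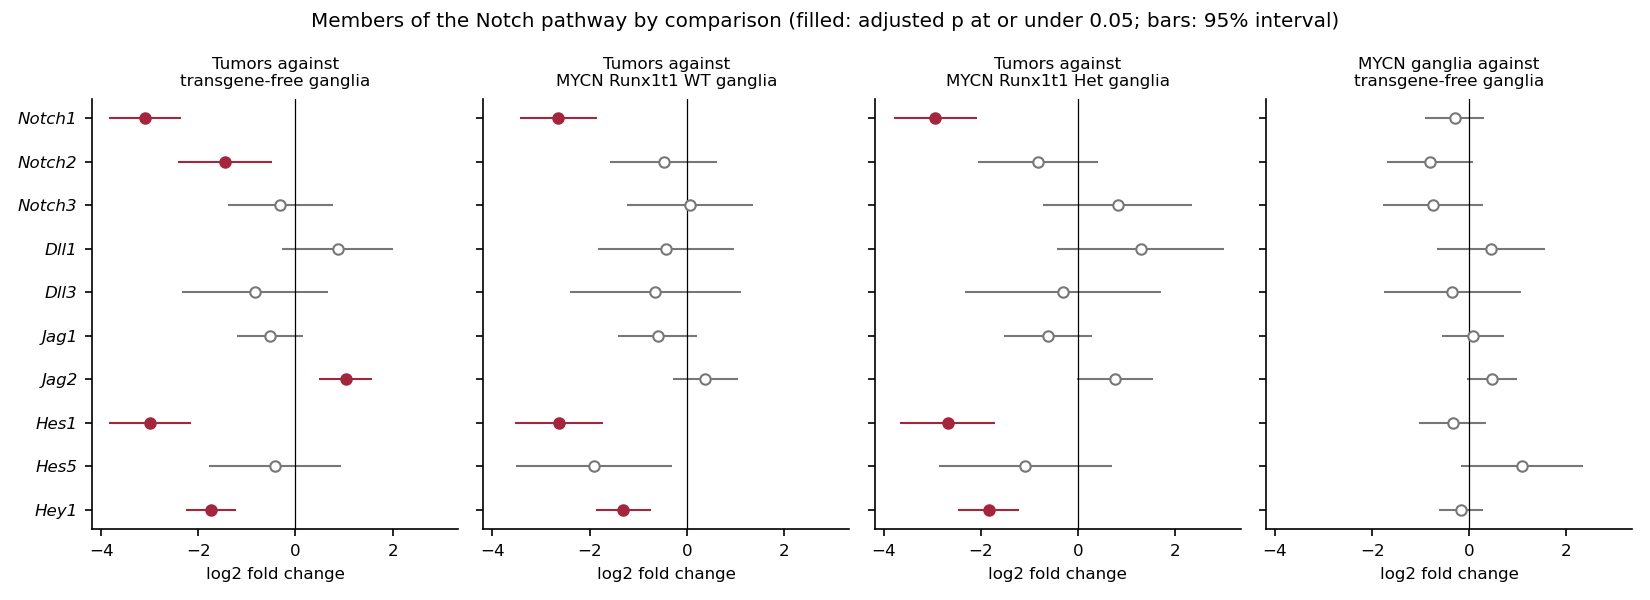
Log2 fold change of each member with its 95% interval (horizontal bars) in the 3 comparisons with tumors and in the comparison of all MYCN with all transgene-free ganglia. Notch1, Hes1 and Hey1 lie to the left of 0 in all 3 tumor comparisons, and all intervals of the MYCN against transgene-free comparison include 0.

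The fourth comparison asked whether the transgene alone was associated with a different level of these genes in ganglia at 2 weeks. No member passed the test between all 5 MYCN and all 7 transgene-free ganglia (0 of 10 by edgeR, with 0 at an unadjusted p below 0.05, and 0 by DESeq2 and by limma). The whole comparison called 7 genes, 0.0420% of those tested. All 10 members overlapped between the groups, where 0.336% of all tested genes were higher and 0.0900% lower without overlap. Notch1 was at 58.1 to 186 CPM against 141 to 239 CPM, with a log2 fold change of -0.30 and a 95% interval of -0.91 to 0.30. The intervals allow a lower Notch2 (-0.81, -1.69 to 0.08), a lower Notch3 (-0.75, -1.78 to 0.28), a higher Jag2 (0.46, -0.06 to 0.98) or a higher Hes5 (1.08, -0.17 to 2.33), the largest difference of a member here, so the data do not show equal levels. Without both libraries that stood apart these values were -0.29 for Notch2 (adjusted p = 0.905, edgeR), -0.47 for Notch3 (adjusted p = 0.923, edgeR), 0.11 for Jag2 (adjusted p = 0.950, edgeR) and 0.70 for Hes5 (adjusted p = 0.875, edgeR). For Hes1 the interval ran from -1.04 to 0.35 and for Hey1 from -0.62 to 0.28, both excluding a fall of the size seen in tumors.

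In mice with wild-type Runx1t1 alone, the MYCN against transgene-free comparison called 156 genes (0.936%) and 0 of the 10 members by edgeR, DESeq2 or limma. Notch2 (-1.38, adjusted p = 0.181, edgeR) and Jag2 (0.77, adjusted p = 0.193, edgeR) were the 2 members below an unadjusted p of 0.05, where all genes tested gave 3302. Without MYCN replicate 3, the log2 fold change of Jag2 was 1.09 with an adjusted p of 0.0216 by edgeR. It was 0.23 without MYCN replicate 1, and 0.07 without both libraries that stood apart (adjusted p = 0.970, edgeR). Hes5 was at 1.40 (adjusted p = 0.315, edgeR), and at 0.63 without both (adjusted p = 0.882, edgeR). Notch2 was at -0.59 without replicate 2 of the transgene-free ganglia and at -0.35 without both (adjusted p = 0.855, edgeR). Wild-type MYCN replicate 1 was the library at an extreme of all MYCN ganglia for Notch1, Notch2, Hes1 and Hey1, where it was lowest, and for Dll1, Jag2 and Hes5, where it was highest. The same library had the highest Runx1t1 (243 CPM), the highest cycling-marker sum and the lowest glial sum (565 TPM) of the MYCN ganglia, and the part of these in its Notch levels was not tested.

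In het-labelled mice the MYCN against transgene-free comparison called 0 genes (0%) by edgeR, with 242 at an unadjusted p below 0.05, 14 by DESeq2 and 0 by limma. No member was called by any of the 3 tools, and none was below an unadjusted p of 0.05. The Runx1t1 label was then compared within each MYCN genotype. In MYCN ganglia 2 genes (0.0120%) and 0 members were called, with 0 members at an unadjusted p below 0.05 and 0 by DESeq2 or limma. Dll1 was at 21.2, 5.15 and 15.4 CPM in the wild-type and at 3.38 and 5.02 CPM in the het-labelled group. The groups did not overlap, but by a narrow margin, and the log2 fold change of -1.72 did not pass (SE 0.844, 95% interval -3.53 to 0.09, edgeR adjusted p = 0.411). Hey1 was higher in both het-labelled than in all wild-type MYCN ganglia, at a log2 difference of 0.53 (95% interval -0.15 to 1.21, edgeR adjusted p = 0.502). Between groups of this size 13.9% of all tested genes were lower and 16.5% higher without overlap, so neither pattern sets the pair apart. Without both libraries that stood apart the values were -1.29 for Dll1 (adjusted p = 0.637, edgeR) and 0.32 for Hey1 (adjusted p = 0.733, edgeR).

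In transgene-free ganglia the Runx1t1 label gave 0 genes (0%) by edgeR, with 687 at an unadjusted p below 0.05, 5 by DESeq2 and 0 by limma. Members gave 0 calls by all 3 tools, and the largest differences were those of Dll1 (-1.38, 95% interval -2.86 to 0.10) and Notch3 (-1.29, 95% interval -2.63 to 0.05), whose groups overlapped, where 1.45% of all tested genes were higher and 1.45% lower without overlap. Without both libraries that stood apart they were -0.96 and -0.93. The interaction of the MYCN and Runx1t1 genotypes likewise gave 0 genes (0%), with 937 at an unadjusted p below 0.05, 31 by DESeq2 and 0 by limma. The lowest adjusted p of a member in the interaction was 0.851 by edgeR.

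The order of levels can be read only on a scale corrected for length, so TPM is used here. In transgene-free ganglia the mean levels were Notch1 44.8 ± 9.12 TPM (SD, n = 7), Jag2 40.9 ± 9.93 TPM and Hey1 26.6 ± 6.25 TPM. Below these came Notch2 at 23.7 ± 17.2 TPM, Notch3 at 18.0 ± 13.0 TPM, Jag1 at 12.6 ± 4.57 TPM and Hes1 at 11.5 ± 3.50 TPM. Dll1 (4.84 ± 3.63 TPM), Dll3 (2.27 ± 1.15 TPM) and Hes5 (1.78 ± 0.801 TPM) were lowest. Each member's range overlapped that of the next in this order, and the same held in MYCN ganglia, where Jag2 (57.2 ± 22.0 TPM, n = 5) was above Notch1 (35.8 ± 14.5 TPM).

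Tumors had another order. Jag2 was at 62.3 ± 4.78 TPM (SD, n = 4), and its lowest tumor was above the highest value of every other member in tumors. Then came Notch3 at 9.28 ± 7.87 TPM, Jag1 at 6.36 ± 2.498 TPM, Notch2 at 6.08 ± 2.60 TPM, Hey1 at 5.85 ± 1.28 TPM and Dll1 at 5.63 ± 3.49 TPM, which all overlapped with their neighbors. The place of Notch3 rests on tumor replicate 2. Without that tumor Notch3 was at 5.38 ± 1.21 TPM (n = 3), below Dll1 (6.60 ± 3.54 TPM) and Hey1 (6.22 ± 1.28 TPM). Notch1 was seventh at 3.84 ± 1.54 TPM. In transgene-free ganglia it was first among the members by mean, but above Jag2 in only 3 of the 7 libraries. Hes1, at 1.01 ± 0.354 TPM, did not overlap with Notch1 but did with Hes5 (0.945 ± 0.523 TPM) and Dll3 (0.938 ± 1.10 TPM).

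Summed by role, the 3 receptors reached 86.5 ± 36.1 TPM in transgene-free ganglia (SD, n = 7, range 58.1 to 156), 58.7 ± 20.6 TPM in MYCN ganglia (n = 5, range 26.8 to 76.7) and 19.2 ± 11.4 TPM in tumors (n = 4, range 9.09 to 35.6). The 3 targets reached 39.9 ± 6.41, 36.0 ± 8.15 and 7.80 ± 1.14 TPM in the same order of groups. Tumor ranges lay below those of transgene-free ganglia for both sums. The 4 ligands reached 60.6 ± 5.79 TPM in transgene-free ganglia, 79.1 ± 25.3 TPM in MYCN ganglia and 75.3 ± 5.09 TPM in tumors. The ratio of ligand to receptor TPM was 0.796 ± 0.271 in transgene-free ganglia (range 0.312 to 1.09), 1.75 ± 1.54 in MYCN ganglia (range 0.673 to 4.45) and 4.90 ± 2.46 in tumors (range 2.19 to 8.10). Wild-type MYCN replicate 1 gave the value of 4.45. Without both libraries that stood apart the ratio was 0.876 ± 0.183 in transgene-free (n = 6) and 1.07 ± 0.328 in MYCN ganglia (n = 4, range 0.673 to 1.36), and the ligand sum of the latter was 69.1 ± 13.6 TPM. These sums describe RNA of a mixed tissue, in which ligand and receptor can come from different cells.

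**Figure D4:**
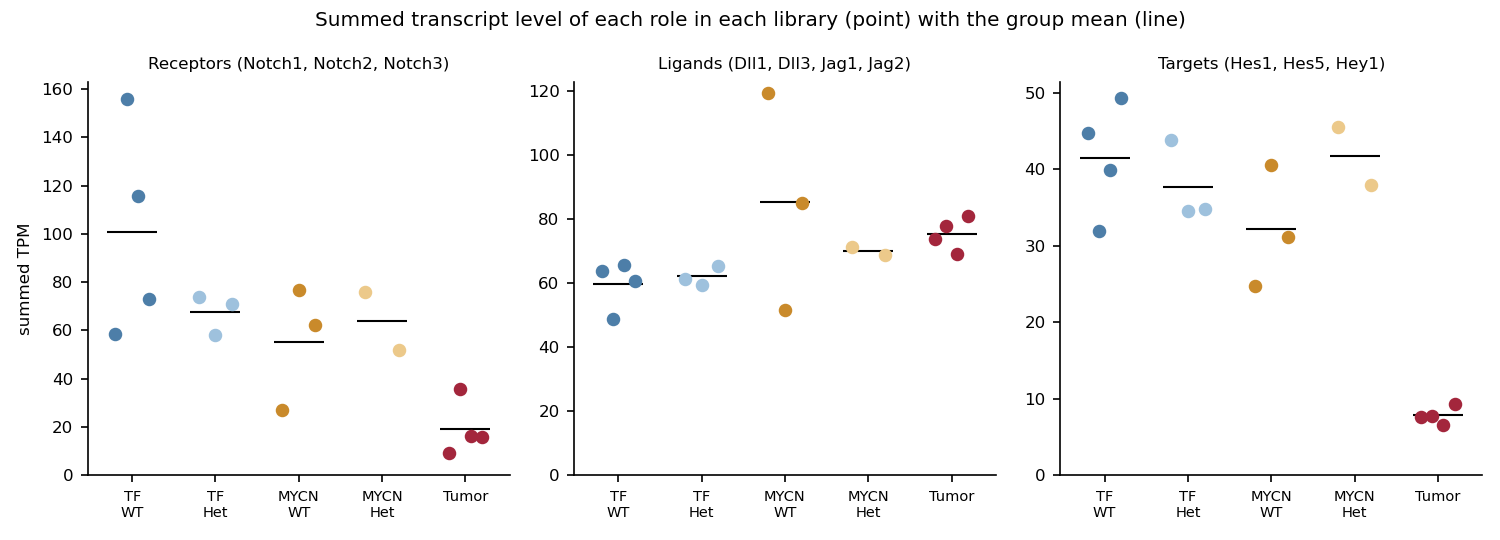
Summed TPM of receptors, ligands and targets in each library, by group, with the group mean as a line (TF, transgene-free; WT and Het, the Runx1t1 label). Receptor sums of 9.09 to 35.6 TPM and target sums of 6.53 to 9.29 TPM in tumors lie below those of the transgene-free ganglia, while ligand sums of tumors (69.0 to 80.7 TPM) lie above them.

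The make-up within roles differed as well. Notch1 was 55.1% of receptor TPM in transgene-free ganglia (range 36.1 to 66.6), 59.5% in MYCN ganglia (range 48.4 to 65.3) and 21.9% in tumors (range 16.7 to 29.0). Notch3 was 19.0%, 18.4% and 44.6% in the same groups, with a tumor range of 36.4 to 59.0. Jag2 was 67.0%, 71.2% and 82.8% of ligand TPM, and its tumor range of 77.9 to 86.3 overlapped that of transgene-free ganglia (45.5 to 84.1).

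The rest of the pathway was read from a list of 70 other genes, of which 61 could be tested. In tumors against transgene-free ganglia, 22 were higher, 25 lower and 14 did not pass, beside 30.6% of all tested genes higher and 30.9% lower, with a median log2 fold change of -0.10 beside -0.06 over all genes. Between all MYCN and all transgene-free ganglia 0 of the 61 passed. The list mixes activators with inhibitors, so it is given by role. Without tumor replicate 3, 22 were higher and 21 lower, and without both libraries that stood apart the counts were 22 and 25. By limma on TPM, 11 were higher and 32 lower, with 4 higher and 6 lower in the nuclear complex, 2 and 7 among negative regulators and 1 and 5 in glycosylation and ligand endocytosis.

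Among 6 further receptors and ligands, 1 was higher and 2 were lower in tumors. Dlk1, a non-canonical ligand of immature neuroendocrine cells, rose from 17.4 to 46.1 CPM in transgene-free ganglia to 983 to 1679 CPM in tumors (log2 fold change 5.72, edgeR adjusted p = 5.3e-06). Dner (-4.71), a neuronal Notch ligand, and Cntn1 (-3.04), a neuronal adhesion protein, fell. Notch4 (-0.42) and Dll4 (0.68), both of endothelium and named after their values were seen, did not pass. Of 10 genes of receptor processing, 7 were lower and 0 higher, and 8 were lower without wild-type MYCN replicate 1. The gamma-secretase subunits Aph1c (-2.10) and Aph1b (-1.74) fell most.

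Of 9 genes of glycosylation and ligand endocytosis, 3 were higher and 4 lower, and 3 were lower without transgene-free replicate 2 and 2 without tumor replicate 3. Of the Fringe sugar transferases, Mfng was higher (2.77), and Lfng (-2.05) and Rfng (-0.58, adjusted p = 0.0147, edgeR), the latter named after its value was seen, were lower. Lfng rested on replicate 2 of the wild-type transgene-free ganglia, which had 70.8 CPM against 4.28 to 7.86 CPM in the other 6. Without both libraries that stood apart Lfng was at -1.21 (adjusted p = 0.0437, edgeR) and Mfng at 3.37 (adjusted p = 0.000532, edgeR), and without tumor replicate 3 Lfng missed the threshold at -1.88 (adjusted p = 0.0789, edgeR). Mib1, the ubiquitin ligase that internalizes ligands, was higher in CPM (0.44) but at 0.01 on the TPM scale (adjusted p = 0.919, limma), with 80.5 to 100.3 TPM in transgene-free ganglia and 89.1 to 101.8 TPM in tumors. Neurl1a (-0.79) was lower, and at -0.67 with an adjusted p of 0.0589 by edgeR without tumor replicate 3.

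Of 17 genes of the nuclear complex and its corepressors, 9 were higher and 4 lower, and 3 were lower without tumor replicate 3. Rbpj, the DNA-binding partner of all Notch receptors, was at 41.8 to 65.1 CPM in transgene-free ganglia and at 87.6 to 112 CPM in tumors, without overlap (log2 fold change 1.00, SE 0.187, edgeR adjusted p = 0.000378). Spen, a corepressor that Rbpj recruits, was at 192 to 258 CPM and at 427 to 495 CPM (1.08, edgeR adjusted p = 1.68e-05), and Snw1 was at 1.09. Rbpj did not pass against wild-type MYCN ganglia (0.42, adjusted p = 0.182, edgeR), and passed there without both libraries that stood apart (0.69, adjusted p = 0.0213, edgeR). Maml2 (-2.69), a Mastermind coactivator, and Tle2 (-3.07), a Groucho corepressor, fell.

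Of 7 other genes listed with the Hes and Hey targets, 4 could be tested, and 1 was higher and 3 lower. Hey2, a target best known from heart and vessels, was at 19.8 to 44.5 CPM in transgene-free ganglia and at 0 to 2.26 CPM in tumors, 1 of which had no count (log2 fold change -5.21, edgeR adjusted p = 2.63e-05). Heyl was at -1.81 (edgeR adjusted p = 6.06e-05) and fell with it. Hes6, which acts against Hes1 and favors neurogenesis, rose from 16.6 to 20.1 CPM to 30.2 to 52.3 CPM (1.34, edgeR adjusted p = 7.2e-06). Nrarp, a target that dampens Notch and that was named after its value was seen, was at -1.28 (edgeR adjusted p = 0.00185). Of the Hes and Hey genes and Nrarp, among the members and this list, Hes1, Hey1, Hey2, Heyl and Nrarp were lower. Hes6 was higher and Hes5 did not pass.

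Of 12 negative regulators, 5 were higher and 5 lower, and 4 were lower without tumor replicate 3. Fbxw7 (1.16), which marks the intracellular domain for destruction, and Dtx1 (0.83) were higher, Dtx1 only in CPM (0.35 on the TPM scale, adjusted p = 0.190, limma), while Numb (-1.59) and Numbl (-1.47), which route receptors to endocytosis, were lower.

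Of 9 proneural genes, which Hes and Hey proteins repress, 3 passed the filter on low counts and 6 did not. Neurod1 and Nhlh2 passed it only through tumors and MYCN ganglia, with no transgene-free library at the level it asks for, so their direction against transgene-free ganglia was fixed by the filter and their levels are a description. Neurod1 had at most 3 counts in each of the 7 transgene-free libraries and 0 in 5 of them, and averaged 20.03 CPM in tumors, at least 125-fold higher when the ganglia were set to a floor of 3 counts per library. Nhlh2 was at 0 in 4 of the 7 and at 0.37 to 5.56 CPM in tumors. Wild-type MYCN replicate 1 lay at tumor level or above for this pair, with 33.1 CPM of Neurod1 and 37.1 CPM of Nhlh2. The other 4 MYCN ganglia had 0.496 to 4.48 CPM of Neurod1 and 1.03 to 10.1 CPM of Nhlh2, so that 3 of the 5 MYCN ganglia were above every tumor for Nhlh2. It also had 613 CPM of Dlk1 and 102 CPM of Rbpj, yet its Notch1 of 58.1 CPM and Hes1 of 2.48 CPM were above every tumor.

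**Figure D5:**
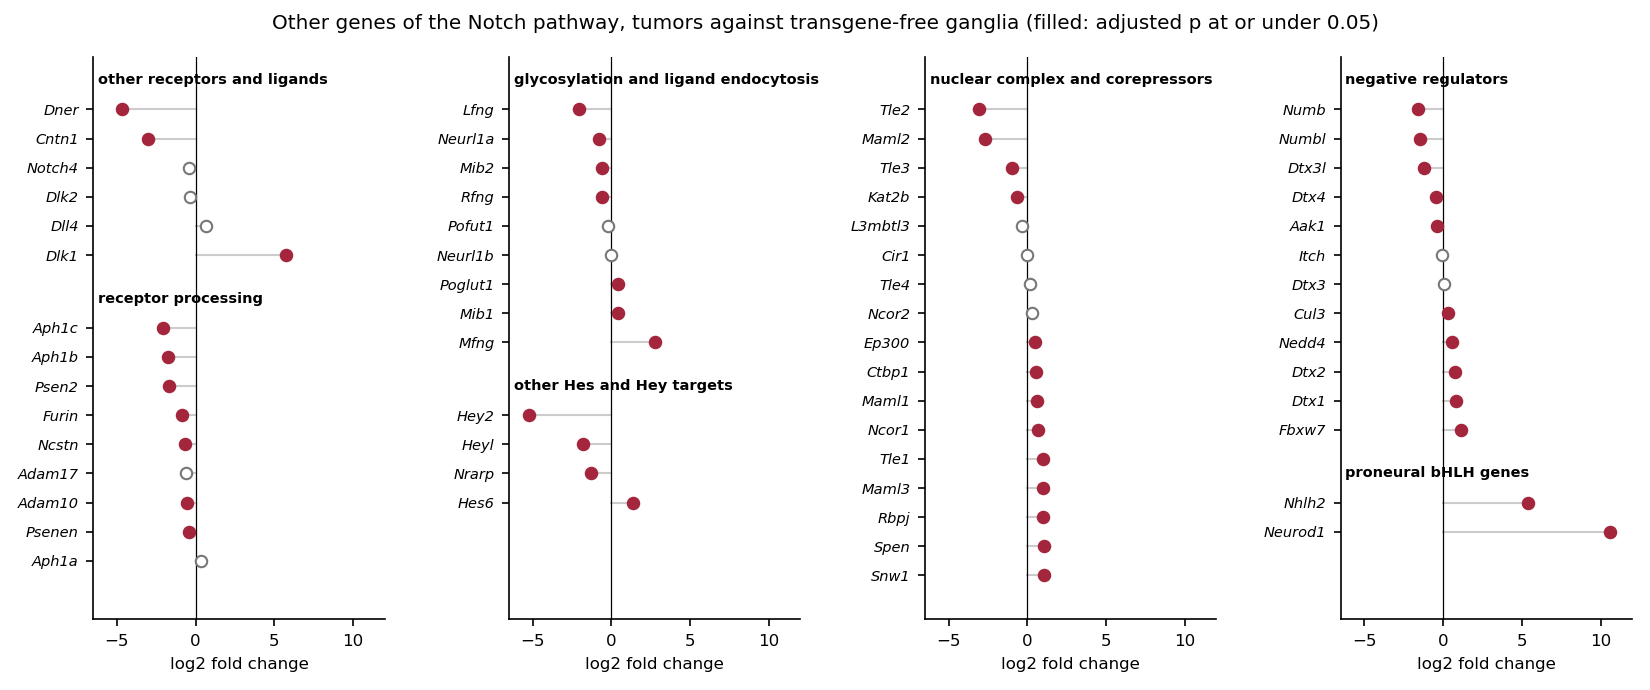
Log2 fold change between tumors and transgene-free ganglia of tested pathway genes (2 of the 61 are not drawn), by role, with filled points past an adjusted p of 0.05. The called genes of receptor processing lie to the left of 0 (0 higher, 7 lower), and the proneural genes shown passed the filter on low counts only through tumors and MYCN ganglia.

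Within groups the members also varied together in part. After each group's mean was subtracted from the log2 CPM, the highest correlation between 2 members over the 16 libraries was that of Notch1 and Hes1 (Pearson r = 0.82) and the lowest that of Notch1 and Jag2 (r = -0.69). Over 14676 genes, those most like Notch1 were Cast (r = 0.92), Pdgfb (0.92) and Add3 (0.91), and those most like Hes1 were Yap1 (0.94), Ssr4 (0.94) and Cuta (0.93). Notch2 was most like Arsb (0.99), Cnn2 (0.97) and Irak4 (0.96). Notch3 was most like Gbp4 (0.95), Isg15 (0.95) and Ly6a (0.94). Jag2 was like Syt14 (0.95) and Slc25a25 (0.95), and Hey1 most like Aldoa (0.97), Palm2 (0.96) and Ubxn6 (0.96). For Jag1 the genes were Ppp2r1b (0.91) and Gabra3 (0.89), for Dll1 Gem (0.92), Gpr6 (0.92) and Smg6 (0.92), for Dll3 Myrf (0.88), Sulf2 (0.85) and Nudt16 (0.83), and for Hes5 2510039O18Rik (0.93), Med14 (0.91) and B3galt6 (0.91). These correlations describe libraries that share depth and cell make-up. All 16 libraries were used, and the part of the 2 that stood apart was not tested.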

How the data were processed

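RNA-Seq libraries (SMARTer Stranded Total RNA-seq kit, although the labels describe polyA RNA) were made by the authors from 12 celiac ganglia and 4 tumors, aligned to mm10 with STAR and quantified with RSEM. The annotation and the strand setting are not given in the sources used here. The authors deposited expected counts per gene, not normalized, and TPM, scaled by RSEM within each library. Column headers give Runx1t1 as Het or Hom, and Hom was read as homozygous wild type, as in the sample labels. Tissue was taken from the titles, since 1 cell type label, neuroblastoma, is given to ganglia and tumors alike.

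Expected counts were rounded and tested with the quasi-likelihood test of edgeR 4.0.16 (R 4.3.3), after filterByExpr (16665 of 24411 genes, 4507 being 0 in every library) and TMM normalization, with all 5 groups in 1 fit, 9 contrasts, Benjamini-Hochberg adjustment over all genes tested and a threshold of 0.05. CPM used TMM-adjusted library sizes. SE is the absolute log2 fold change over the square root of F. A gene at or under 3 counts in every library of a group is at the floor. The 10 members were all named; of each pathway role, up to 2 called genes per direction were named by size of change, with Rbpj, Spen and Runx1t1, and for each member its 3 most correlated genes (mean TPM of 1 or more). Exceptions are stated where they occur, and a few genes that the rule names are not reported here. The members and all lists were chosen with earlier results of these data known.

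Alternatives were upper-quartile scaling, library size alone, no filter or at least 10 counts in every library, DESeq2 1.42.0, limma 3.58.1 on log2(TPM + 1), terms for depth (20000000 counts), for Ddx3y (1 CPM) and for the replicate number, a fit without Rn45s, a fit of only the groups compared and leaving out each library. Library size alone, the fit without both libraries that stood apart, and subsets by depth and Ddx3y were chosen once the data had been seen. Statistics were tested on simulated data, promoter matches were computed in Python 3.11.15, and no libraries held identical values. Depth was 10692299 to 38618757 counts, and precision was limited by 2 to 4 libraries per group.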

Additional observations from a re-analysis of the deposited data

Results flagged for a closer look

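Notch2 was at 293 CPM in replicate 2 of the wild-type transgene-free ganglia, where the nearest of the other 3 libraries was at 94.6 CPM, so that the gap took 0.851 of the group's whole range. Notch3 was at 94.4 CPM in tumor replicate 2, with the nearest tumor at 27.5 CPM and a gap of 0.871 of the range. Both are single libraries far from the rest of their group of 4. In all, 20 combinations of a member and a group of 4 were examined, and these 2 were flagged. A gap was flagged where its share of the range exceeded the critical value of Dixon's outlier test for groups of 4. Such a rule can flag some of 20 combinations by chance alone, and how often it does so for these values was not tested.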

How the results depend on the processing

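The 5 members called between tumors and transgene-free ganglia kept their direction under every alternative run, with log2 fold changes of -3.54 to -2.95 for Notch1, -2.21 to -0.81 for Notch2, 0.61 to 1.33 for Jag2, -3.24 to -2.57 for Hes1 and -2.00 to -1.45 for Hey1. The calls were lost only among libraries split by Ddx3y, for Notch2 in both subsets and for Jag2 in the lower one, where 3 members were called. Hes5 changed sign with a term for depth, to 0.19 against transgene-free and 0.27 against het-labelled MYCN ganglia, and among deeper libraries, to 0.081, and Dll3 changed sign at low Ddx3y, to 0.45, a subset with 1 tumor that is assumed to vary like the other groups. Neither gene passed the threshold there. The cause was not tested. Among the member values followed through these runs, 1020 stayed on their side of the threshold, 16 passed it newly, 3 lost it and 4 changed sign. These cover every member for tumors against transgene-free ganglia and only some members in other comparisons. No fold change of a member was followed for the interaction or for the MYCN comparison in het-labelled mice. limma on TPM shifted the median log2 fold change of all genes by -0.41 and library size alone by -0.11.

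Counts of genes called moved more. Tumors against transgene-free ganglia gave 10240 genes, and 4300 among libraries with Ddx3y over 1 CPM. All MYCN against all transgene-free ganglia gave 7, and 18 with upper-quartile scaling, 19 without a filter, 2 with at least 10 counts, 0 with the replicate block, 0 with a depth term, 17 without Rn45s, 0 with only these groups, 356 with DESeq2, 0 with limma and 25 without the 2 libraries that stood apart. In wild-type Runx1t1 this contrast gave 156, and 238, 308 with a depth term, 50 with a Ddx3y term, 236 without Rn45s, 0 with only these groups, 1285 with DESeq2, 16 with limma, 0 without the 2 libraries and 0 with the replicate block, where 238 is with upper-quartile scaling. In het-labelled mice it gave 0, and 9 with only these groups, 14 with DESeq2 and 1 without the 2 libraries. The Runx1t1 label in MYCN ganglia gave 2, and 1 with upper-quartile scaling, 1 without a filter, 4 with at least 10 counts, 1 with the replicate block, 0 with a depth or Ddx3y term, 1 without Rn45s, 0 with only these groups, 264 with DESeq2 and 16 with limma. It gave 0 in transgene-free ganglia and 5 with DESeq2, and the interaction gave 0, 31 with DESeq2 and 1 without the 2 libraries.

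Leaving out each library in turn gave 9520 to 10755 genes and 5 to 7 members for tumors against transgene-free ganglia, 3549 to 6755 genes against wild-type and 4313 to 8275 against het-labelled MYCN ganglia, 0 to 720 for all MYCN against transgene-free ganglia, 0 to 1811 genes and 0 to 1 members in wild-type Runx1t1, 0 to 320 for the Runx1t1 label in MYCN ganglia and 0 to 1 for the interaction. Of 25 pairs of same-numbered libraries, 7 had a correlation over 0.1 (range -0.27 to 0.31). In all, 5 of 16 libraries were most like one of their own number. The 7 include every pair of wild-type transgene-free ganglia and tumors (0.157, 0.308, 0.221 and 0.149 for replicates 1 to 4). The main fit took the replicate number as no pairing, and the number was tried as a block. With the block, 5 members were called between tumors and transgene-free ganglia. The block took Hes5 past the threshold against wild-type MYCN ganglia (-1.88, adjusted p = 0.0379, edgeR). Depth limits Dll3 and Hes5, at 3 to 101 and 7 to 70 counts.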
